A study of Homo sapiens with 12 samples.

Results

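The sites of BrdU incorporation in H1 human embryonic stem cells were set against the sites of H3K18ac in the same cell line. The members were all 5086 regions of the H1 control BrdU list and all 65946 regions of the H1 H3K18ac list, 71032 of the 169273 regions in the 6 deposited lists. The members are all regions of these lists, taken by cell line and assay, with no threshold on a measured value. The question the design poses is where newly labelled DNA lies relative to this histone mark. BrdU is a thymidine analogue that cells build into DNA during S phase, so that an antibody against it pulls down DNA made while the label was present. H3K18ac, an acetylated lysine of histone H3, is laid down by the acetyltransferases p300 and CBP and is known from active promoters and enhancers. Origins of replication in human cells have no strict consensus sequence and are often described near active promoters and open chromatin.

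The BrdU library came from H1 cells in mTESR1 medium that were transfected with a non-targeting siRNA by DharmaFECT 1, kept with HA 1077 at 10 µM and collected after 72 h. Denatured DNA (4 µg) was precipitated with a BrdU antibody. The H3K18ac library came from H1 cells in the same medium with no siRNA (5000000 cells per immunoprecipitation, with a custom antibody), so the 2 libraries differ in treatment as well as in assay. For contrast, the report uses IMR90 lung fibroblast H3K18ac and 3 further BrdU lists, from H1 cells with siRNA against EP300 and CREBBP (also with HA 1077), from IMR90 and from Saos-2 osteosarcoma cells, the IMR90 and Saos-2 cells without siRNA. Every group holds 1 library, so nothing below could be tested between libraries and no p-values are given. Region lists hold no expression values, and the labelled cell type could not be checked against marker genes. The length of the BrdU pulse is not given in the sources used here.

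Both H1 lists consist mostly of small regions on a grid of 100 bp windows. The BrdU list covered 1.08 Mb with a median width of 100 bp, and 3199 of its regions (62.9%) were a single window. The H3K18ac list covered 15.7 Mb, also with a median of 100 bp, and 35418 of its regions (53.7%) were a single window. The longest BrdU region measured 3400 bp and the longest H3K18ac region 4200 bp. The depth of the libraries is unknown.

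BrdU regions in H1 lay close to H3K18ac far more often than the genome did. The distance was taken from the midpoint of each BrdU region to the nearest edge of an H3K18ac region, and the same distance was taken from the centre of every 100 bp window along the chromosomes (30921685 windows) as the background. The midpoint lay inside a mark for 267 of the 5086 BrdU regions (5.25%, 95% Wilson interval 4.67 to 5.90), against 0.509% of genome windows, a ratio of 10.3 (9.17 to 11.6). A further 894 midpoints (17.6%, 16.6 to 18.6) lay 1 to 1000 bp away, against 3.58% of windows. Within 1 kb in all were 1161 midpoints (22.8%, 21.7 to 24.0), against 4.09% of windows, 5.58 times the background. The class of 1 to 10 kb held 2017 midpoints (39.7%), against 19.7% of windows. Within 10 kb in all were 62.5% of midpoints (61.1 to 63.8), against 23.8% of windows.

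Fewer BrdU regions than genome windows were remote from the mark. The class of 10 to 50 kb held 1432 midpoints (28.2%, 26.9 to 29.4), against 34.0% of windows. Beyond 50 kb lay 476 midpoints (9.36%, 8.59 to 10.2), against 42.2% of windows, a ratio of 0.222. That share was 22.8% without single-window marks, 16.4% with the upper 50% of both lists by score and 5.14% without single-window BrdU regions, with ratios of 0.371, 0.274 and 0.122. The background windows include assembly gaps. Counted only in 500 kb bins that hold a region, 35.9% of windows lay beyond 50 kb, and the ratio was 0.261. The ratio inside the mark was 19.3 with the upper 50% of both lists and 17.3 without single-window BrdU regions. Within 1 kb the ratio was 10.7 with the upper 50% of both lists, and without single-window marks the share was 12.4% within 1 kb and 40.4% within 10 kb. The median distance was 5801 bp for BrdU midpoints, with quartiles of 1250 and 18451 bp, and 35851 bp for genome windows. The ratio therefore fell with each class, from 10.3 inside the mark through 4.91 and 2.01 to 0.829 and 0.222. These intervals cover the counting error of regions only, and neighbouring regions are not independent of each other.

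**Figure D1:**
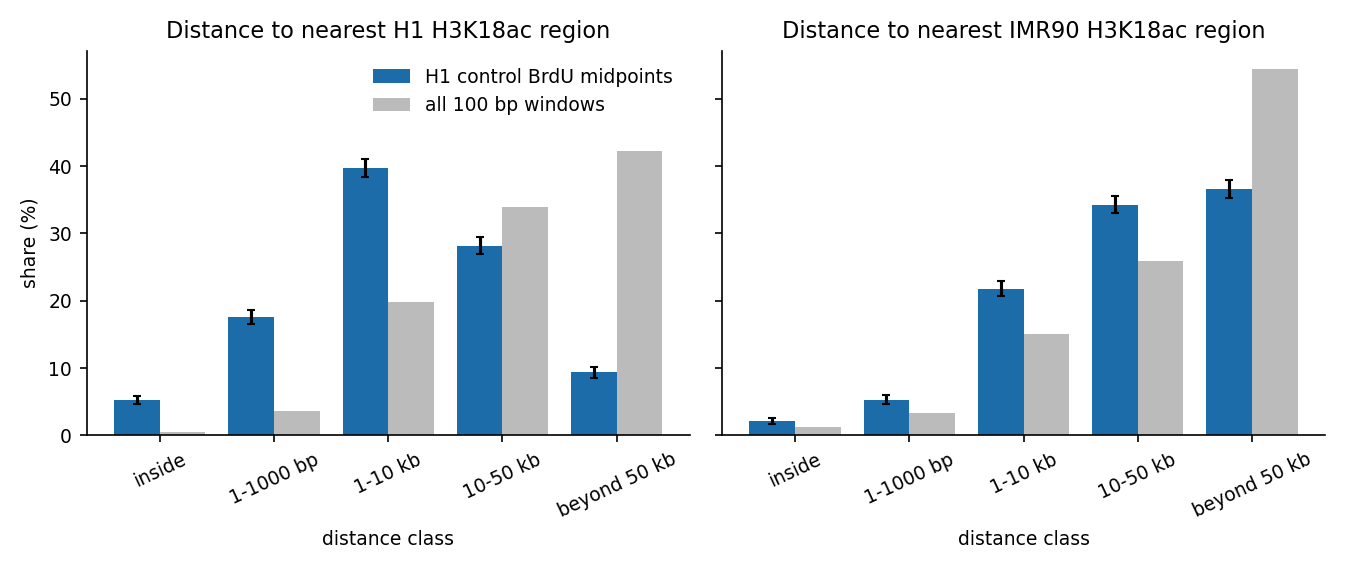
Share of H1 control BrdU midpoints (blue, with 95% Wilson intervals) and of all 100 bp windows of the genome (grey) in each class of distance to the nearest H3K18ac region of H1 (left) or IMR90 (right), in percent. For the H1 mark, 5.25% of midpoints and 0.509% of windows lie inside a region, and 9.36% and 42.2% lie beyond 50 kb. For the IMR90 mark, 2.08% of midpoints and 1.28% of windows lie inside a region, and 36.6% and 54.4% lie beyond 50 kb.

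The H3K18ac list of another cell type gave a much flatter relation to the same BrdU regions. Of the H1 control BrdU midpoints, 106 lay inside IMR90 H3K18ac (2.08%, 1.73 to 2.51), against 1.28% of genome windows, a ratio of 1.63 (1.35 to 1.97). The ratios for the next 3 classes were 1.58, 1.45 and 1.32, and beyond 50 kb it was 0.672. The IMR90 list covers 39.5 Mb, so a wider mark list lay over fewer BrdU midpoints than the narrower H1 list did. The median distance of the H1 control midpoints to an IMR90 mark was 27101 bp. The flat relation was not particular to H1 BrdU. The IMR90 BrdU list had an inside ratio of 1.65 against the IMR90 mark of its own cell line. Against the H1 mark the inside ratio was 12.9 for IMR90 BrdU and 13.8 for Saos-2 BrdU, both above the 10.3 of H1 control. It was 3.13 (2.17 to 4.51) for the H1 list with EP300 and CREBBP siRNA, from 28 midpoints. These ratios are not at equal width. Single windows made up 39.1% of Saos-2, 61.5% of IMR90, 62.9% of H1 control and 85.8% of siRNA BrdU regions. The single windows of H1 control alone had an inside ratio of 6.20.

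Around BrdU midpoints the H1 mark showed a narrow peak on a broad shoulder. In the first 100 bp ring, 5.37% of windows were covered by H1 H3K18ac. For a single-window BrdU region this ring is that window itself. Cover was 4.20% at 200 to 300 bp, 2.08% at 500 to 1000 bp and 1.63% at 1 to 2 kb. From there it changed little, with 1.54% at 2 to 5 kb and 1.48% at 20 to 50 kb. It reached 1.03% at 500 to 1000 kb, which was still 2.02 times the 0.509% of the whole genome. The peak was thus confined to about 1 kb around the midpoint in these rings, while the surroundings as a whole were rich in the mark.

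The other BrdU lists showed that this peak was not limited to BrdU sites of H1. In the first 100 bp, H1 H3K18ac covered 6.62% of windows at IMR90 midpoints and 7.11% at Saos-2 midpoints, both above the 5.37% at H1 control midpoints. At the midpoints of the H1 list with EP300 and CREBBP siRNA it covered 1.57%, against 1.24% at 2 to 5 kb from the same midpoints. That list holds 1755 regions, of which 85.8% are a single window, against 62.9% in H1 control, 61.5% in IMR90 and 39.1% in Saos-2. The cover was thus not compared between lists at equal width. IMR90 H3K18ac had no such peak at any list: at H1 control midpoints it covered 2.07% in the first 100 bp and 2.38% at 2 to 5 kb, and at IMR90 midpoints 2.13% and 2.07%.

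**Figure D2:**
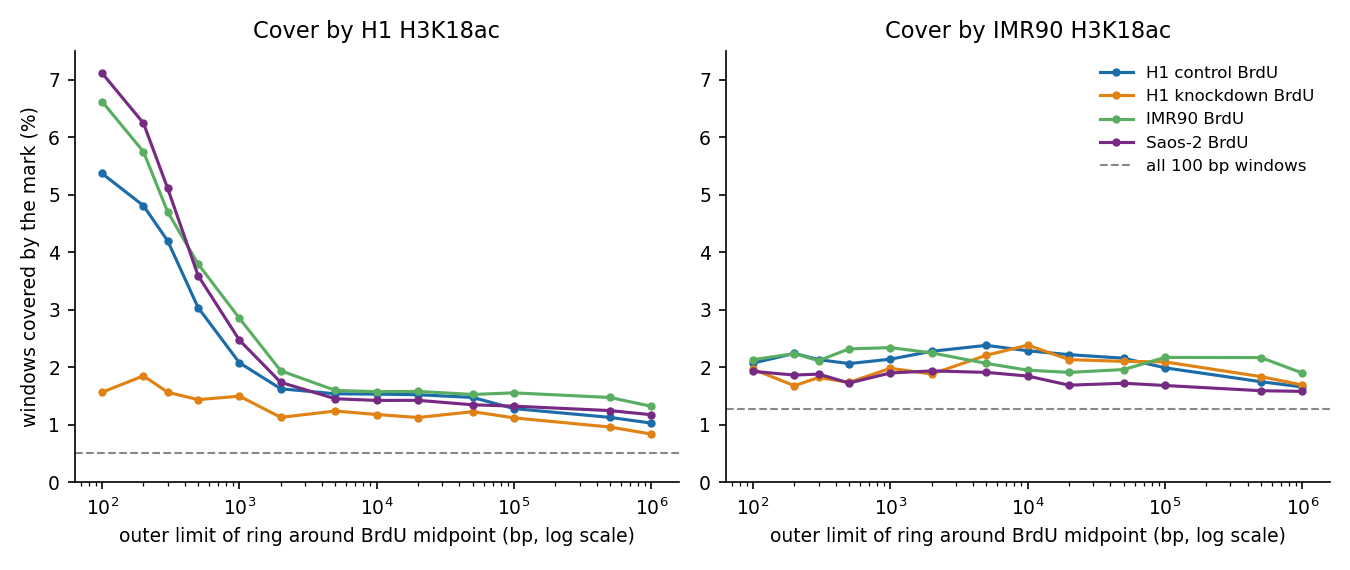
Percent of 100 bp windows covered by H1 H3K18ac (left) or IMR90 H3K18ac (right) in rings around the BrdU midpoints of the 4 BrdU lists. The horizontal axis is the outer limit of each ring in bp on a log scale, and the dashed line is the cover of the whole genome. Under the H1 mark the H1 control, IMR90 and Saos-2 lists rise toward the midpoint, to 5.37%, 6.62% and 7.11%, and under the IMR90 mark all 4 lists stay between 1.58% and 2.39%.

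The wider a BrdU region was, the closer it lay to the mark. Midpoints were inside H3K18ac for 101 of the 3199 regions of 100 bp (3.16%, 2.61 to 3.82), for 71 of the 1130 regions of 200 to 300 bp (6.28%, 5.01 to 7.85), for 81 of the 655 regions of 400 to 900 bp (12.4%, 10.1 to 15.1) and for 14 of the 102 regions of 1000 bp or more (13.7%, 8.36 to 21.7). A midpoint is a single base whatever the width, so a wide region had no larger target here than a narrow one. The last 2 width classes lay within each other's intervals. The class of 1 to 1000 bp rose over all 4 widths, with 14.3%, 18.8%, 27.0% and 48.0%. A mark at up to 1000 bp from the midpoint of a wide region can still be inside that region. Whether this bears on the last rise was not tested.

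Remote regions thinned out along the same order. Beyond 50 kb lay 11.8% of the regions of 100 bp, 6.28% of those of 200 to 300 bp, 3.82% of those of 400 to 900 bp and 1 of the 102 widest (0.980%, 0.173 to 5.35). The median distance was 7451, 5000.5, 2700 and 550.5 bp over the same widths. Even single-window regions were nearer to the mark than the genome, with 17.4% of midpoints within 1 kb against 4.09% of windows.

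The share of BrdU bases under the mark gave the same order. H3K18ac covered 10.1 of the 320 kb in single-window BrdU regions (3.16%), 16.0 of 259 kb at 200 to 300 bp (6.19%), 43.9 of 359 kb at 400 to 900 bp (12.2%) and 21.5 of 139 kb at 1000 bp or more (15.4%). Over the whole list it covered 91.5 of 1077 kb (8.50%). IMR90 H3K18ac covered 2.41%, 1.78%, 1.03% and 1.58% over the same widths, with no rise.

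The widths differed at the centre by more than they did in the surroundings. In the first 100 bp around the midpoint the mark covered 3.16%, 6.24%, 13.4% and 13.7% of windows from the narrowest to the widest class. The first of these is the midpoint share of single windows again. At 10 to 20 kb the mark covered 1.46%, 1.62%, 1.67% and 1.44%. Regions of 400 to 900 bp had reached 1.40% at 1 to 2 kb already. In the widest class the cover was 16.7% at 200 to 300 bp and so higher than at the midpoint itself, a difference inside the interval of the 102 regions. The IMR90 mark went the other way in regions of 400 to 900 bp, with 1.22% in the first 100 bp and 2.12% at 20 to 50 kb.

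**Figure D3:**
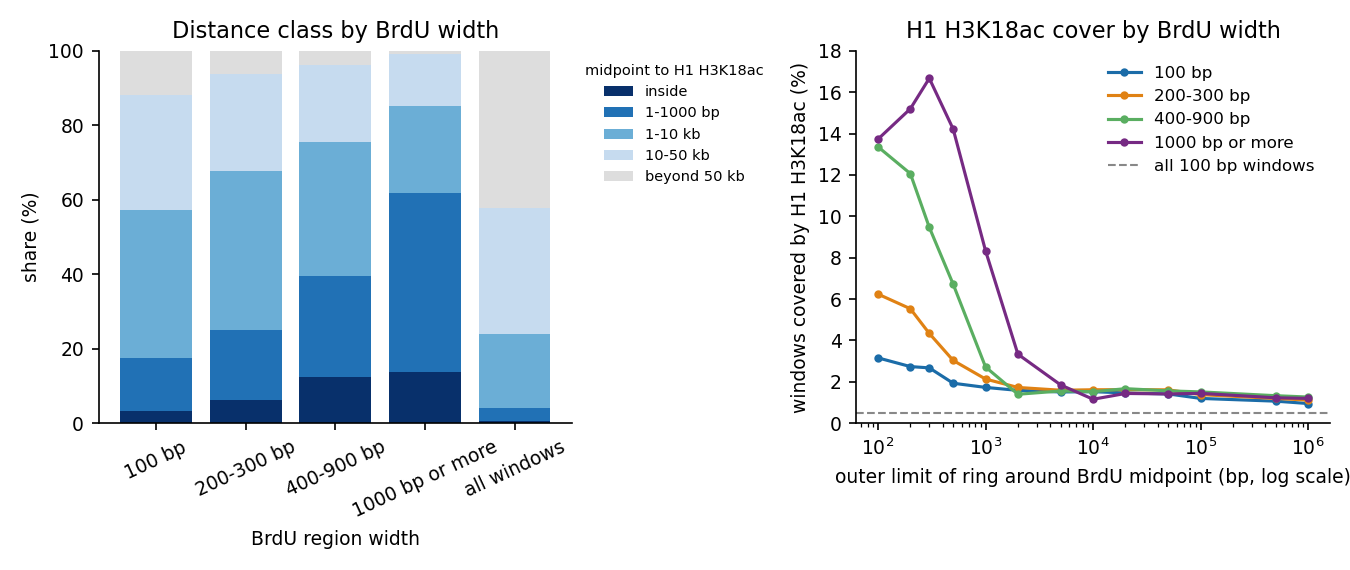
Left, share of H1 control BrdU regions in each distance class by width of the BrdU region, with all genome windows at the right, in percent. Right, percent of 100 bp windows covered by H1 H3K18ac in rings around the midpoint for each width class (outer limit of the ring in bp, log scale), with the genome cover as a dashed line. The 4 curves start between 3.16% and 13.7% and come together between 1.44% and 1.67% at 10 to 20 kb.

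Within each width class, the share inside the mark was larger among regions of higher score. The score is a whole number per region given by the authors, whose meaning the files do not state, and it was used here only to rank regions within the list. Score rises with width, with median percentiles of 31.8, 73.8, 91.5 and 99.0 from the narrowest to the widest class, so outside the single windows the split by score is not one at equal width. Among single-window regions, 73 of the 1572 with a score above the class median had their midpoint in the mark (4.64%, 3.71 to 5.80), against 28 of the 1627 at or under it (1.72%, 1.19 to 2.48). At 400 to 900 bp the shares were 66 of 327 (20.2%, 16.2 to 24.9) and 15 of 328 (4.57%, 2.79 to 7.41). Among the widest regions, 13 of 50 (26.0%) and 1 of 52 (1.92%) lay in the mark. In all 4 width classes the regions of higher score had the larger share, and within 1 kb it was 23.3% against 11.7% for single windows and 53.5% against 25.3% at 400 to 900 bp.

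Where both regions met, a mark inside the BrdU region was the most frequent of the arrangements counted. Any overlap of at least 1 bp joined 445 BrdU regions (8.75%) with 472 marks in 472 pairs, so each mark met a single BrdU region. In 235 pairs (49.8%, 45.3 to 54.3) the mark lay inside the BrdU region, with a median width of 100 bp in a BrdU region of 600 bp. In 45 pairs (9.53%) both had the same start and end, and 36 of these were single windows. Inside and identical pairs together made up 59.3% (54.8 to 63.7), but 37.0% without single-window marks and 43.8% where at least 50% of the BrdU region had to be covered. On the 100 bp grid an overlapping single-window mark can only lie inside or be identical, and 167 of the 472 marks were single windows. Likewise the 101 overlapping single-window BrdU regions could only be identical or held by the mark. The ranking of arrangements thus depends on the widths in the lists. In 104 pairs (22.0%, 18.5 to 26.0) the mark held the whole BrdU region, with a median of 500 bp around one of 100 bp. The mark crossed the lower end of the BrdU region in 46 pairs and the higher end in 42. Of the 894 midpoints at 1 to 1000 bp, 178 belonged to BrdU regions that overlapped a mark away from their midpoint, and 716 (80.1%) belonged to regions that overlapped none.

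Marks in overlapping pairs mostly covered part of the BrdU region. The median distance between the 2 centres was 100 bp and the 75th percentile 200 bp. The pairs were taken for overlapping, which itself limits this distance, so it is no measure of a central position. The centre of the mark had the lower coordinate in 201 pairs, the higher in 192, and coincided with the BrdU centre in 79. Marks covered 149 of the 445 BrdU regions whole and under 50% of 178. One mark lay on 423 BrdU regions, 2 marks on 18 and 3 or more on 4.

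In the 535 BrdU regions of 500 bp or more the mark was densest in the interior and thinned out across the border. It covered 14.9% of the windows more than 200 bp inside the edge (13.4 to 16.5), 12.6% at 100 to 200 bp inside, and 11.3% in the last window (9.55 to 13.3). Outside, it covered 7.66% of the first 100 bp (6.22 to 9.41), 5.23% of the next and 3.46% at 200 to 300 bp, and 1.68% at 900 to 1000 bp, with values of 2.34% to 3.46% between 300 and 600 bp. IMR90 H3K18ac covered 1.08% of the same interior and 1.12% of the first 100 bp outside, and 1.87% at 900 to 1000 bp outside. The intervals here count windows and not regions. Several windows come from each of the 535 regions and can lie under the same mark, so these intervals are too narrow.

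**Figure D4:**
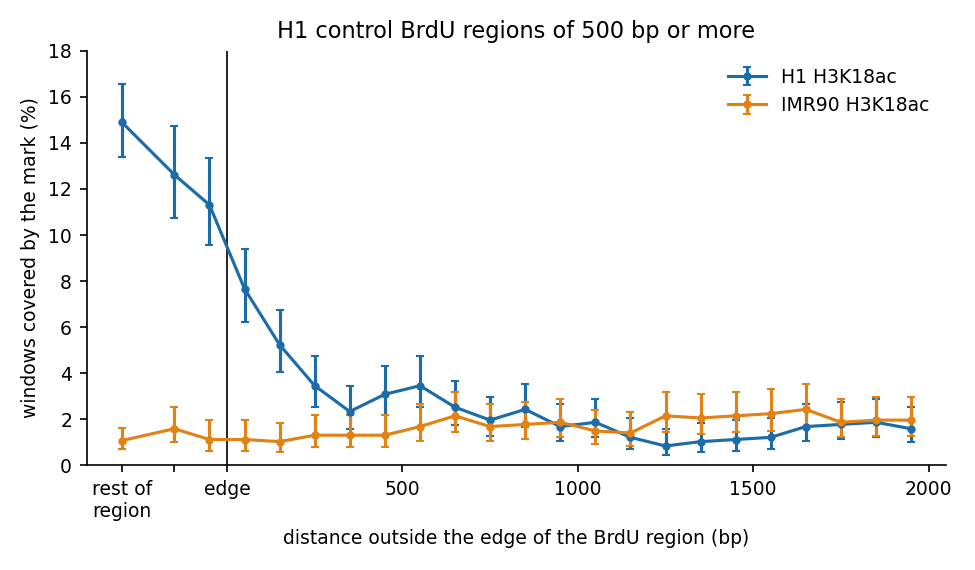
Percent of 100 bp windows covered by H1 H3K18ac (blue) or IMR90 H3K18ac (orange) relative to the edges of the 535 H1 control BrdU regions of 500 bp or more, both edges combined. The 95% Wilson intervals count windows, which are not independent within a region. Points left of the vertical line lie inside the region. The H1 mark falls from 14.9% in the interior to 7.66% just outside and 1.68% at 900 to 1000 bp, and the IMR90 mark shows no such fall.

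For BrdU midpoints outside a mark, the nearest mark was on either side about equally often. It had the higher coordinate for 2358 of 4819 midpoints (48.9%, 47.5 to 50.3), and for 445 of 894 (49.8%) at 1 to 1000 bp. In the class of 10 to 50 kb it was 657 of 1432 (45.9%, 43.3 to 48.5), the single class whose interval left out an even split. The lists carry no strand, so sides are by coordinate. Marks stood on both sides within 10 kb for 1124 of the 4819 midpoints (23.3%), on 1 side for 1787 (37.1%) and on neither for 1908 (39.6%).

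On autosomes other than chromosome 8, the 5 widest BrdU regions with a mark inside held 2 to 4 marks each. They were taken for holding a mark, and of the 102 BrdU regions of 1000 bp or more 52 overlapped any mark. The region at chr22:50775501-50778900 (hg19; 3400 bp, rank 1 by score) held 3 marks, of 100 bp at 50776601 to 50776700, of 400 bp at 50777001 to 50777400 centred on the BrdU midpoint, and of 400 bp at 50777901 to 50778300. Together they covered 26.5% of it. The region at chr1:41991901-41994900 (3000 bp) held 4 marks, the most in the list, from one of 500 bp at its lower border to one of 100 bp at 41994701 to 41994800. These covered 26.7%. At chr12:123994901-123997700 (2800 bp) the 2 marks covered 42.9%, and the larger, of 1000 bp at 123996701 to 123997700, ended at the same base as the BrdU region. At chr11:115017601-115019600 (2000 bp) the 2 marks covered 50% of it, and the region at chr2:239393701-239395800 (2100 bp) was covered to 14.3% by 2 marks.

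Other broad regions had marks across their borders or to one side of the centre. At chr7:76626801-76628200 (1400 bp) there were 3 marks, of which one of 200 bp crossed each border and one of 300 bp lay over the midpoint. At chr19:35788101-35790000 (1900 bp) a single mark of 100 bp lay 451 bp from the midpoint and covered 5.26% of the region. At chr2:242806401-242808200 (1800 bp) a mark of 200 bp lay 201 bp from the midpoint and another of 100 bp ended at the border. At chr20:60804101-60805800 (1700 bp) no mark overlapped, and the nearest began 101 bp past the higher edge, at 60805901 to 60806100.

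The widest BrdU regions remote from the mark were shorter. On the same autosomes, without chromosome 8, the 5 widest with a midpoint over 50 kb away measured 500 to 1100 bp. The first, at chr10:124484301-124485400 (1100 bp, rank 118 by score), lay 76551 bp from its nearest mark and was the one region of the widest class in this distance class. That at chr11:92438401-92439200 (800 bp) lay 151601 bp away. The others, at chr7:27407601-27408200, chr2:100632401-100633000 and chr2:225783401-225783900, lay 81000, 111101 and 91851 bp away. All 5 were also present in the IMR90 and Saos-2 BrdU lists, and the first was present after EP300 and CREBBP siRNA as well. They were taken for their width, and wide regions were often shared. Of all regions of 400 to 900 bp, 62.7% were in the IMR90 list, 93.0% in the Saos-2 list and 12.1% in the siRNA list. Of all regions beyond 50 kb, 9.24% were in the IMR90 list and 21.2% in the Saos-2 list.

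Seen from the mark, few H3K18ac regions met a BrdU region, and the widest were not favoured. The midpoint of 366 of the 65946 marks lay in a BrdU region (0.555%, 0.501 to 0.615), against 0.0348% of genome windows, a ratio of 15.9. Most marks, 44077 of them (66.8%), lay over 50 kb from the nearest BrdU region, against 87.7% of windows. By width of the mark, the midpoint lay in a BrdU region for 0.472% at 100 bp (0.405 to 0.548), 0.608% at 200 to 300 bp, 0.782% at 400 to 900 bp (0.629 to 0.973) and 0.351% at 1000 bp or more (0.161 to 0.763, 6 of 1710 marks). The intervals of the last 2 classes overlap.

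Per length of mark, the density of BrdU midpoints was alike over the 3 narrower classes and lower in the widest marks. It was 18.1 per Mb in marks of 100 bp (exact Poisson interval 13.9 to 23.1), 19.4 at 200 to 300 bp (15.5 to 24.0), 17.9 at 400 to 900 bp (14.6 to 21.8) and 8.08 at 1000 bp or more (4.79 to 12.8), against 1.64 per Mb over the whole genome span. The widest marks made up 14.1% of all mark bases and took 18 of the 267 midpoints inside a mark (6.74%, 4.31 to 10.4). These marks were also the ones most often present in IMR90, at 71.2% against 7.82% of the single-window marks. Within marks of 400 to 900 bp, 58 of 101 BrdU midpoints fell in the central 50% of the mark's length (57.4%, 47.7 to 66.6), and within the widest 10 of 18.

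**Figure D5:**
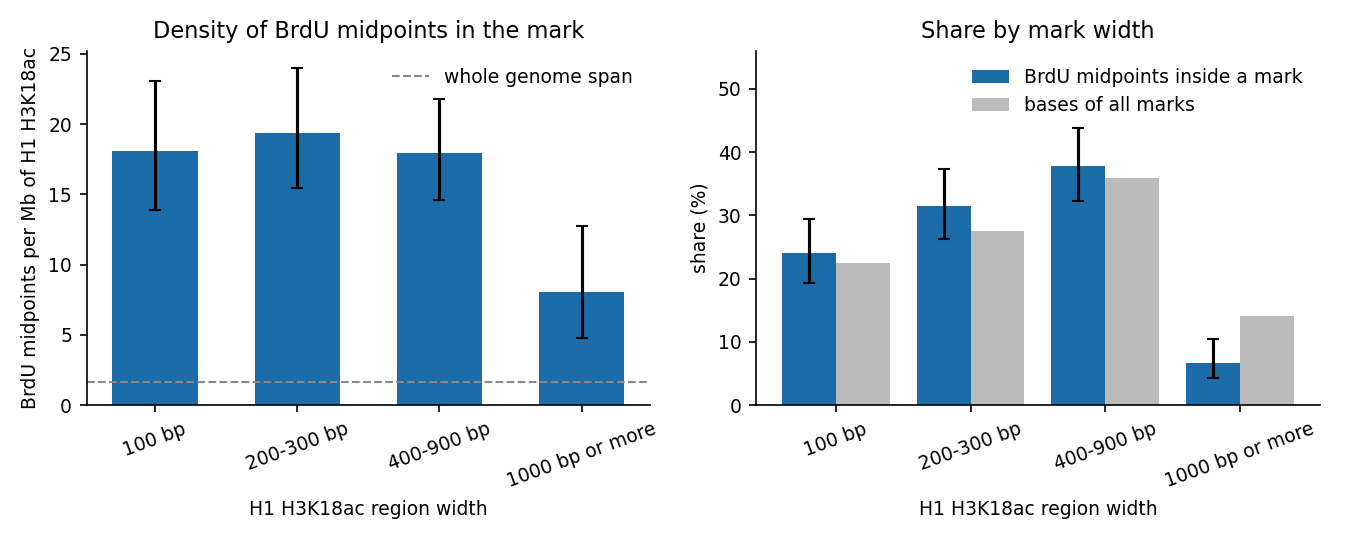
Left, H1 control BrdU midpoints per Mb of H1 H3K18ac by width of the mark, with exact Poisson 95% intervals, and the density over the genome span as a dashed line (1.64 per Mb). Right, share of the 267 midpoints inside a mark by width of that mark (blue, 95% Wilson intervals) beside the share of all mark bases (grey). The widest marks hold 14.1% of the bases and 6.74% of the midpoints.

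Of the 5 widest marks that met a BrdU region on autosomes other than chromosome 8, 3 held a single-window region of low score. They were the mark at chr1:150206801-150208400 (1600 bp) with BrdU in its first window, that at chr9:130860801-130862300 (1500 bp) and that at chr1:120189201-120190700 (1500 bp). None of these 3 BrdU regions was in another BrdU list, which is usual for single windows. Of all single-window regions, 13.2% were in the Saos-2 list, 7.19% in the IMR90 list and 0.531% in the list with EP300 and CREBBP siRNA. The mark at chr15:77915001-77916600 (1600 bp) held a BrdU region of 300 bp at 77916201 to 77916500. In the last case both were broad: the mark at chr3:194047301-194048700 (1400 bp) shared its start with a BrdU region of 1600 bp and covered 87.5% of it.

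Marks that met BrdU regions were also set against the IMR90 mark list. Of the 472 marks in a pair, 38 (8.05%) overlapped an IMR90 H3K18ac region, against 19.0% of all H1 marks. By width the shares were 2.99% of 167 marks at 100 bp, against 7.82% of all marks of that width, 3.73% of 161 at 200 to 300 bp, against 20.1%, and 13.6% of 125 at 400 to 900 bp, against 46.8%. Among the widest marks 10 of 19 were shared (52.6%), against 71.2%. The median score percentile of the marks in a pair within the H1 H3K18ac list was 76.9, against 49.8 for all marks, and 48.7 against 28.4 among single windows.

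The width of the mark that held a BrdU midpoint varied with the width of the BrdU region, except in the widest marks. Of the 101 single-window BrdU regions in a mark, 36 lay in a single-window mark (35.6%, 27.0 to 45.4), while such marks hold 22.5% of mark bases. Of the 81 BrdU regions of 400 to 900 bp in a mark, 44 lay in marks of 400 to 900 bp (54.3%, 43.5 to 64.7), which hold 35.8% of mark bases, and 9 in single-window marks (11.1%, 5.96 to 19.8). Marks of 1000 bp or more, with 14.1% of mark bases, took 5 of these 81 (6.17%, 2.67 to 13.6) and 2 of the 14 widest BrdU regions in a mark (14.3%, 4.01 to 39.9).

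BrdU regions nearer to the mark were also wider, higher in score and more often found in the other cell lines. The median score percentile in the BrdU list was 81.4 inside the mark, 67.6 at 1 to 1000 bp, 49.8 at 1 to 10 kb, 40.3 at 10 to 50 kb and 32.2 beyond. Single windows made up 37.8% of the regions inside and 79.6% of those beyond 50 kb. The share present in the Saos-2 BrdU list was 67.8% inside (62.0 to 73.1), 51.8%, 31.9%, 23.7% and 21.2% beyond (17.8 to 25.1). In IMR90 the shares were 39.0%, 29.0%, 20.6%, 15.5% and 9.24% in the same order.

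The order in the Saos-2 and IMR90 lists was also looked at within single windows and within widths of 400 to 900 bp. Among single-window regions, 31.7% were in the Saos-2 list inside the mark (23.4 to 41.3), 21.3% at 1 to 1000 bp, 13.6% at 1 to 10 kb, 7.80% at 10 to 50 kb and 11.1% beyond. Among regions of 400 to 900 bp the shares were 96.3%, 95.5%, 91.5%, 92.6% and 80.0% (20 of 25, 60.9 to 91.1). The first 4 classes had overlapping intervals. The interval beyond 50 kb overlapped all of these except that at 1 to 1000 bp (91.3 to 97.7). In the IMR90 list the shares at this width were 69.1%, 55.4%, 67.8%, 61.8% and 52.0%, with no steady order. Among single-window regions the IMR90 shares did fall with each class. They were 15.8% inside (9.99 to 24.2), 9.43%, 8.46%, 5.07% and 3.43% beyond 50 kb (2.02 to 5.78).

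Few H1 control BrdU regions of any width were also in the list with EP300 and CREBBP siRNA, 156 of 5086 (3.07%, 2.63 to 3.58). By distance they numbered 5 of 267 inside the mark (1.87%, 0.802 to 4.31), 53 of 894 at 1 to 1000 bp (5.93%, 4.56 to 7.67), 53 of 2017 at 1 to 10 kb (2.63%), 42 of 1432 at 10 to 50 kb (2.93%) and 3 of 476 beyond 50 kb (0.630%). These shares did not follow the order of distance. Among single windows they were 0 of 101 inside the mark (Wilson upper bound 3.66%) and 3 of 456 at 1 to 1000 bp (0.658%). Over all 3199 single windows they were 17 (0.531%), so 0 of 101 is no departure from that share.

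BrdU regions with a further BrdU region within 10 kb were commoner near the mark. They made up 22.8% of regions inside it, 27.9% at 1 to 1000 bp, 23.5% at 1 to 10 kb, 13.3% at 10 to 50 kb and 7.56% beyond 50 kb. Regions so close together can share a nearest mark and are not independent.

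The relation was present on each of the 22 autosomes, to differing degrees. The share of BrdU midpoints inside a mark ran from 3.64% on chromosome 3 to 9.09% on chromosome 21, with a median of 5.27%. Divided by the cover of the same chromosome, the lowest ratio was 2.29, on chromosome 19, which also had the highest density of BrdU regions (4.13 per Mb). The median ratio was 10.2, and all 22 were above 1.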

How the data were processed

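The deposited files are 6 region lists, 1 per pulled-down library. Alignment with Bowtie 0.12.7 and the build hg19 are named in the submitters' processing notes. How regions were called, at what threshold and against which input is not stated in the labels or files, and an unlisted region may have lain just under the threshold. Starts and ends (1-based, both included) lie on a 100 bp grid, and regions of a list are at least 300 bp apart. The last column is a score deposited by the authors, of unstated meaning. The 6 input samples were not analysed here.

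Distances were computed with scipy 1.17.1, pandas 2.3.3 and numpy 2.4.6 under Python 3.11.15, and plots were drawn by matplotlib 3.10.9. The background is an exact count over all 100 bp windows from the first base of each chromosome to the last region end in any list (3092 Mb, assembly gaps included). Shares have Wilson 95% intervals, which cover counting error only. The code was tested on simulated regions, and 500 of 500 planted midpoints returned to their class. Regions named in the text are the 5 first of each set by width, or by number of marks, on autosomes other than chromosome 8. Members, classes and sets were chosen with earlier results of these data known. No hg19 genome or annotation was used, so regions are given without genes or bases, and the planned base composition and gene lists were not analysed here.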

Additional observations from a re-analysis of the deposited data

How the results depend on the processing

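No ratio to the genome changed its side of 1. Over 7 alternatives the ratio inside the mark ran from 8.91 to 19.3, within 1 kb from 4.92 to 10.7, within 10 kb from 2.36 to 3.73 and beyond 50 kb from 0.122 to 0.371. Of 77 alternative values 33 stayed within the counting interval of the main value and 44 left it, and the cause was not tested unless the construction gives it. Depth is unknown and no library was replicated, so none of these intervals holds the spread between cultures. No paired analysis was possible because each group has 1 library.

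With the upper 50% of both lists by score, the share inside was 7.75% (ratio 19.3), the ratio within 1 kb 10.7, the share within 10 kb 51.7% (3.73), the share beyond 50 kb 16.4% (0.274) and the pairs with the mark inside or identical 54.7% (59.3% in the full lists). Without single-window BrdU regions these were 8.80% (17.3), 32.0% within 1 kb (7.83), 71.3% (2.99), 5.14% (0.122) and 65.8%. Without single-window marks, which leaves fewer marks, they were 3.99% inside, 12.4% within 1 kb (5.99), 40.4% (3.08), 22.8% (0.371) and 37.0%. Merging BrdU regions within 10 kb gave 21.4% within 1 kb (5.24) and 60.4% within 10 kb (2.54). Autosomes alone gave a ratio of 2.54 within 10 kb and left the other 17 values in their intervals. From the nearest BrdU edge, 8.75% touched a mark. Counting windows in 500 kb bins that hold a region gave ratios of 5.03 within 1 kb, 2.36 within 10 kb and 0.261 beyond 50 kb. Weighting the genome by chromosome, chosen after the data had been seen, gave 8.91 inside, 4.92 and 2.39. With 50% of the BrdU region covered, 43.8% of pairs had the mark inside or identical.

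Counting any overlap in place of the midpoint, which by construction favours wide regions, gave 9.56%, 28.1% and 51.0% for BrdU widths of 200 to 300 bp, 400 to 900 bp and 1000 bp or more. For marks it gave 0.866%, 1.22% and 1.11% at the same widths.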
